A study of Mus musculus with 24 samples.

Results

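The growth hormone pathway of the growth plate was followed through 9 genes, namely the growth hormone receptor gene Ghr, its kinase gene Jak2, the transcription factor genes Stat3, Stat5a and Stat5b, and the feedback inhibitor genes Socs1, Socs2, Socs3 and Cish. They were taken by symbol, as every probe set whose annotated gene symbol was one of these 9 names, which gave 12 probe sets. Socs2, Socs3 and Cish had 2 probe sets each, and of several probe sets the one brightest on average was taken for the gene, as it was for each of the 22180 genes on the array that had a probe set of a single symbol. All 9 genes were kept, with no filter on low values.

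Growth plates of the proximal tibia were taken from wild-type and Ezh1/2 mice that were 3 days old, and the zone of dividing chondrocytes (proliferative zone, PZ) was arrayed apart from that of enlarging ones (hypertrophic zone, HZ). Each of the 4 combinations of genotype and zone had 6 arrays, 24 together. Ezh1 and Ezh2 encode the methyltransferases that place the repressive mark H3K27me3. Ezh1/2 mice were Col2-cre Ezh1-/- Ezh2 fl/fl, so that Ezh2 was lost where the collagen II promoter drives the Cre recombinase, and the wild-type mice were Col2-cre Ezh1-/- Ezh2+/+, so both genotypes carried the Cre and lacked Ezh1. The labels name the first genotype a KO of Ezh2. Mice were of a mixed background and of both sexes. Each array held 1 zone of 1 animal, dissected by laser capture on morphology from sections of that animal, and the small RNA yield was amplified before hybridization. Values are RMA-normalized log2 expression, so a difference of 1 is a doubling, and log2 levels of different probe sets were not set against each other.

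Growth hormone reaches the growth plate from the pituitary and binds a receptor dimer on chondrocytes, which activates JAK2. JAK2 phosphorylates STAT5A and STAT5B, which enter the nucleus and switch on target genes, among them the SOCS genes and Cish, whose products in turn damp the receptor and the kinase. The same kinases and STAT3 also serve cytokine receptors of the interleukin-6 family. In the growth plate the hormone acts partly on chondrocytes directly and partly through insulin-like growth factor 1, and mice that lack Socs2 grow too large.

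Sex-linked genes matched between the PZ and HZ arrays of 10 of 12 animals and did not match for wild-type numbers 3 and 5, so zone differences that rest on them are given without them too. On 3 HZ arrays (wild-type 1 and 4 and Ezh1/2 1) the interquartile range of all log2 values was only 1.35, 1.42 and 1.43, against 1.57 to 2.02 on the other 21 arrays. Every HZ array had a narrower range than every PZ array. The HZ had 1.35 to 1.77 in wild-type and 1.43 to 1.78 in Ezh1/2 mice, and the PZ 1.79 to 2.02 and 1.82 to 1.96. The part of this in the zone differences was not tested. Ezh2 itself averaged 7.09 ± 0.17 (SD, n = 6) in the wild-type PZ and 6.46 ± 0.30 (SD, n = 6) in the Ezh1/2 PZ without overlap (limma adjusted p = 0.0852), but 6.27 ± 0.23 and 6.43 ± 0.15 (SD, n = 6 each) in the HZ, where it was thus not lower on the arrays labelled Ezh1/2. Of 6 hypertrophic markers 5 were higher in the HZ of both genotypes (Col10a1 by 3.27 in wild-type and 3.65 in Ezh1/2 mice), while Panx3 had -0.19 (adjusted p = 0.377) in wild-type mice and was lower by 0.94 in Ezh1/2 mice (adjusted p = 0.000111). The ranges of Mmp13 and Ibsp overlapped between the wild-type zones.

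Ghr, Stat3, Socs2 and Socs3 were higher in the HZ than in the PZ of both genotypes, by 0.54 to 1.37 on the log2 scale. Stat5a and Stat5b, the STAT genes most closely tied to growth hormone, were instead lower in the wild-type HZ by 0.34 each. Their calls were not firm and ended in 8 and 6 of 12 fits that left out 1 array. None of the 9 genes differed between Ezh1/2 and wild-type mice in either zone by the adjusted p. Between the zones of wild-type mice 4 of 9 genes were called higher and 2 lower at an adjusted p under 0.05, against 21.6% higher and 19% lower among all 22180 genes. In Ezh1/2 mice 6 were called higher and 0 lower, against 19.1% and 17.7%. The 6 arrays of one zone were fully apart from those of the other for 2 of the 9 genes in wild-type mice (17.7% of all genes) and 3 in Ezh1/2 mice (17.6%). The median HZ minus PZ difference of the 9 genes was 0.36 in wild-type and 0.59 in Ezh1/2 mice, where that of all genes was 0.09 and 0.06.

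**Figure D1:**
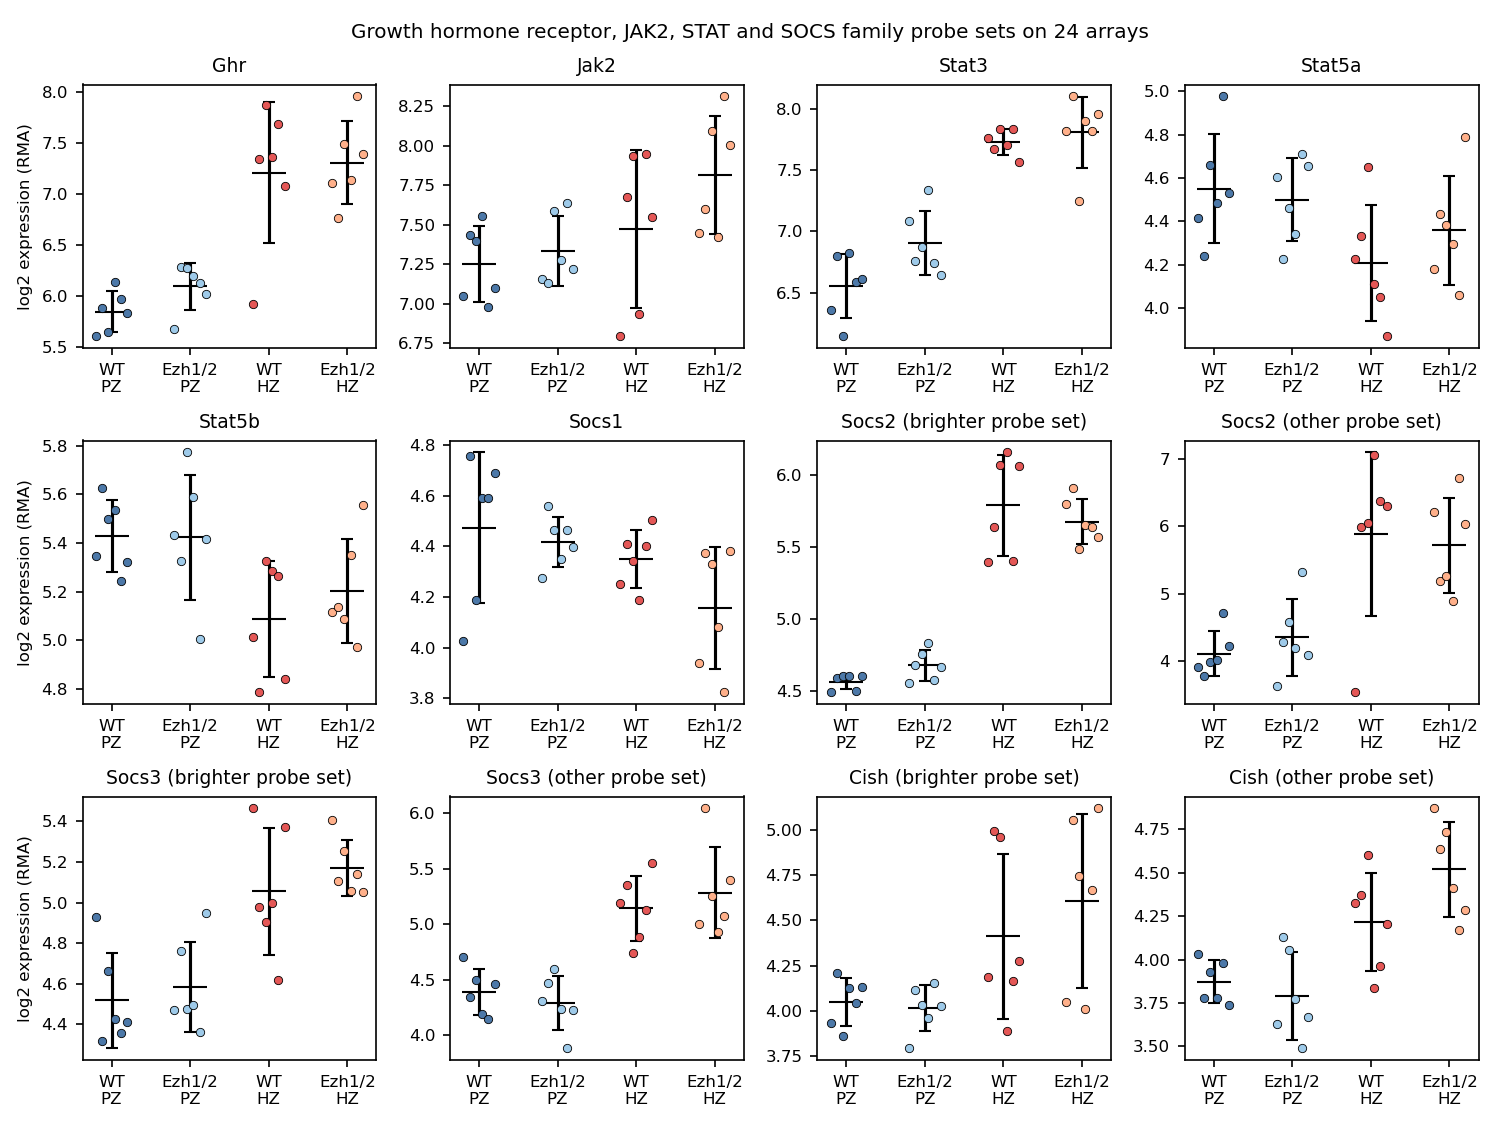
Log2 expression of the 12 probe sets on each of the 24 arrays (points, 1 per array), with the mean and SD of the 6 arrays of each group (bars) and a separate vertical scale in each panel. Every HZ array stood above every PZ array on the brighter Socs2 probe set, Ghr and Stat3 were higher in the HZ with some overlap (wild-type HZ array 1 at 5.93 for Ghr, Ezh1/2 HZ array 3 at 7.25 for Stat3), and the genotypes overlapped within each zone.

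Ghr, the receptor, is where the hormone signal enters the cell. Its lowest, median and highest log2 values were 5.61, 5.86 and 6.14 in the wild-type PZ and 5.93, 7.35 and 7.87 in the wild-type HZ. The Ezh1/2 values were 5.68, 6.16 and 6.29 in the PZ and 6.77, 7.27 and 7.96 in the HZ. The 2 zones did not overlap in Ezh1/2 mice, and in wild-type mice they overlapped only through HZ array 1, 1 of the 3 arrays of narrow range. The HZ minus PZ difference was 1.37 (standard error 0.22, adjusted p = 4.72e-05 from limma) in wild-type mice, a fold of 2.58, and 1.21 (standard error 0.22, adjusted p = 0.000189) in Ezh1/2 mice, a fold of 2.32. The wild-type difference exceeded that of 98.4% of all genes. Without wild-type numbers 3 and 5 the wild-type difference was 1.06 (adjusted p = 0.00483), and without the 3 arrays of narrow range it was 1.65 (adjusted p = 1.14e-06).

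Jak2 encodes the kinase bound to the receptor. It lay between 6.98 and 7.55 in the wild-type PZ with a median of 7.25, and between 6.80 and 7.95 in the wild-type HZ with a median of 7.61. The Ezh1/2 arrays spanned 7.13 to 7.63 in the PZ (median 7.25) and 7.42 to 8.31 in the HZ (median 7.80). Zones overlapped in both genotypes, with wild-type HZ arrays 1 and 4 below every wild-type PZ array. In wild-type mice the zones differed by 0.22 (95% interval -0.16 to 0.60, adjusted p = 0.353). This difference was -0.05 (adjusted p = 0.883) without wild-type numbers 3 and 5 and 0.53 (adjusted p = 0.016) without the 3 arrays of narrow range, so the wild-type value rests on which arrays enter. Jak2 was higher in the HZ of Ezh1/2 mice by 0.48 (standard error 0.18, adjusted p = 0.0484), a call that ended in 7 of 12 fits that left out 1 array (PZ arrays 1, 2, 4 and 6 and HZ arrays 3, 5 and 6, highest adjusted p = 0.122).

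Stat3, a transcription factor used by the interleukin-6 family and also phosphorylated after growth hormone, showed the narrowest spread of the risen genes in the wild-type HZ. Its values there were 7.56, 7.73 and 7.83 (lowest, median and highest) against 6.15, 6.6 and 6.83 in the wild-type PZ. The Ezh1/2 PZ had 6.64, 6.82 and 7.34 and the Ezh1/2 HZ 7.25, 7.86 and 8.10. Wild-type zones were fully apart, and in Ezh1/2 mice HZ array 3, at 7.25, was the only HZ array below a PZ array. The zone difference was 1.17 (standard error 0.13, adjusted p = 4.06e-07 from limma) in wild-type and 0.90 (standard error 0.13, adjusted p = 1.49e-05) in Ezh1/2 mice, or folds of 2.25 and 1.87. Without wild-type numbers 3 and 5 the wild-type value was 1.03 (adjusted p = 0.000162).

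Stat5a and Stat5b encode the paired STAT5 factors that carry most of the transcriptional response to growth hormone. Stat5a values were 4.24, 4.51 and 4.98 (lowest, median and highest) in the wild-type PZ and 3.87, 4.17 and 4.65 in the wild-type HZ. The Ezh1/2 arrays had Stat5a at 4.23, 4.53 and 4.71 in the PZ and 4.06, 4.34 and 4.79 in the HZ. These ranges overlapped throughout. Stat5b had 5.24, 5.42 and 5.63 in the wild-type PZ against 4.79, 5.14 and 5.33 in the wild-type HZ. For Ezh1/2 mice the Stat5b values were 5.0, 5.42 and 5.77 in the PZ and 4.97, 5.13 and 5.56 in the HZ. For Stat5b too the zones overlapped in both genotypes.

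The HZ minus PZ difference of wild-type mice was -0.34 (standard error 0.13, adjusted p = 0.0467 from limma) for Stat5a and -0.34 (standard error 0.12, adjusted p = 0.0302) for Stat5b. In Ezh1/2 mice it was -0.14 (95% interval -0.42 to 0.13, adjusted p = 0.436) and -0.22 (95% interval -0.47 to 0.03, adjusted p = 0.167). Neither wild-type call was firm. That of Stat5a ended in 8 of 12 fits that left out 1 array (PZ arrays 3, 4, 5 and 6 and HZ arrays 1, 4, 5 and 6, highest adjusted p = 0.137), without the animal block (adjusted p = 0.0597) and without wild-type numbers 3 and 5 (-0.28, adjusted p = 0.141). That of Stat5b ended in 6 of 12 (PZ arrays 2, 3 and 4 and HZ arrays 1, 2 and 6, highest adjusted p = 0.0771), after a further quantile normalization (-0.18, adjusted p = 0.275) and without the 3 arrays of narrow range (adjusted p = 0.0558). Without wild-type numbers 3 and 5 Stat5b had -0.47 (adjusted p = 0.0235). Stat5b, Stat5a and Stat3 follow each other directly along 1 chromosome in the RefSeq annotation, and the products of the first 2 are closely alike in sequence. Whether probes for one of these read RNA of the other was not tested.

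Socs2 and Cish are the SOCS family genes most often used as readouts of STAT5 activity, and SOCS2 limits the signal of the growth hormone receptor. On its brighter probe set Socs2 spanned only 4.49 to 4.60 in the wild-type PZ (median 4.59) and rose to 5.40, 5.85 and 6.15 (lowest, median and highest) in the wild-type HZ. Its Ezh1/2 values were 4.55, 4.67 and 4.83 in the PZ and 5.48, 5.64 and 5.91 in the HZ. All 12 HZ arrays lay above all 12 PZ arrays. The difference was 1.22 (standard error 0.11, adjusted p = 1.73e-08 from limma) in wild-type mice and 1.0 (standard error 0.11, adjusted p = 3.69e-07) in Ezh1/2 mice, folds of 2.33 and 2.0. These were the lowest adjusted p-values of the 9 genes. Without wild-type numbers 3 and 5 the wild-type difference was 1.24.

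The other Socs2 probe set varied more between arrays. It had 3.78, 4.0 and 4.72 (lowest, median and highest) in the wild-type PZ and 3.54, 6.17 and 7.05 in the wild-type HZ, with array 1 as the lowest. Ezh1/2 mice had 3.63, 4.24 and 5.32 in the PZ and 4.89, 5.65 and 6.72 in the HZ. It too was higher in the HZ, by 1.78 (standard error 0.40, adjusted p = 0.00128) in wild-type and 1.36 (standard error 0.40, adjusted p = 0.0106) in Ezh1/2 mice. Over the 24 arrays the 2 Socs2 probe sets had a Pearson r of 0.79, and the deviations from the group means one of 0.39.

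Cish encodes CIS, which binds phosphorylated receptors. Its brighter probe set had 3.86, 4.08 and 4.21 (lowest, median and highest) in the wild-type PZ and 3.89, 4.23 and 5.0 in the wild-type HZ, a difference of 0.36 that did not pass (95% interval -0.01 to 0.74, adjusted p = 0.121). Without the 3 arrays of narrow range the wild-type difference was 0.55 and passed (adjusted p = 0.0281), and without wild-type numbers 3 and 5 it was 0.24 (adjusted p = 0.427). It rose in Ezh1/2 mice from 3.79, 4.03 and 4.15 to 4.01, 4.71 and 5.12, by 0.60 (standard error 0.18, adjusted p = 0.0145). Within each genotype the HZ arrays fell apart into high and low ones, wild-type arrays 2 and 3 at 5.0 and 4.96 against 4.28 or less on the others, and Ezh1/2 arrays 1 and 4 at 4.05 and 4.01 against 4.67 or more. The low ones included the 3 arrays of narrow range, and on the other probe set Ezh1/2 array 1 was the highest of its group (4.87). The other Cish probe set was higher in the HZ in both genotypes, by 0.34 (adjusted p = 0.042) in wild-type and 0.73 (adjusted p = 0.00014) in Ezh1/2 mice, in which its zones did not overlap. Its r with the brighter probe set was 0.58 over the arrays and 0.19 for deviations from the group means.

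Socs3, which restrains gp130 receptors and JAK kinases, had 4.32, 4.42 and 4.93 (lowest, median and highest) in the wild-type PZ and 4.62, 4.99 and 5.46 in the wild-type HZ. The Ezh1/2 PZ had 4.36, 4.48 and 4.95 and the Ezh1/2 HZ 5.05, 5.13 and 5.41, without overlap. The HZ was higher by 0.54 (standard error 0.13, adjusted p = 0.00232 from limma) in wild-type and by 0.59 (standard error 0.13, adjusted p = 0.00115) in Ezh1/2 mice. On the other Socs3 probe set the differences were 0.75 (adjusted p = 0.00075) and 1.0 (adjusted p = 3.68e-05), with no overlap of the zones in either genotype. Socs3 kept its calls when wild-type numbers 3 and 5 were left out, with 0.68 (adjusted p = 0.00235) in wild-type mice.

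Socs1, the family member that inhibits the JAK kinase domain and is best known downstream of interferons, did not pass in any comparison. It had 4.03, 4.59 and 4.76 (lowest, median and highest) in the wild-type PZ and 4.19, 4.37 and 4.50 in the wild-type HZ. Its Ezh1/2 values were 4.27, 4.43 and 4.56 in the PZ and 3.82, 4.21 and 4.38 in the HZ. The zone difference was -0.12 (95% interval -0.36 to 0.11, adjusted p = 0.401) and -0.26 (95% interval -0.50 to -0.03, adjusted p = 0.0794). Without Ezh1/2 HZ array 6 the latter was -0.31 (adjusted p = 0.049).

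STAT dimers bind the palindrome TTCNNNGAA, which reads the same on both strands, so the promoters of these genes were searched for it as a description. RefSeq (GRCm38.p6) gave windows from 250 bases before to 50 bases after the start site for 8 of the 9 genes, 11 windows in all, with none for Socs2 in the table used here. Cish and Socs3, 2 of these 8 genes, held the motif, which was present in 9.55% of all 27025 genes and 8.3% of all 32851 windows. They are shown because both encode inhibitors that STATs are known to switch on, with the motif in capitals. The Cish stretch is chr9:107296654-107296683 (plus strand) with motifs that begin at bases 1 and 12 counted from the start site, and the Socs3 stretch is chr11:117969367-117969616 (minus strand), the 250 bases before the start site, with a motif that begins at base -154.
Cish: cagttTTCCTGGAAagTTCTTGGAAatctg
Socs3: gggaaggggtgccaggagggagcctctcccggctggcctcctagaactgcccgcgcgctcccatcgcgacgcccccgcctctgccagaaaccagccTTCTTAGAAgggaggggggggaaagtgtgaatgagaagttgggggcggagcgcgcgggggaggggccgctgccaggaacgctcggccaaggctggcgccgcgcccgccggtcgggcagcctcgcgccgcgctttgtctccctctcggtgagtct

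**Figure D2:**
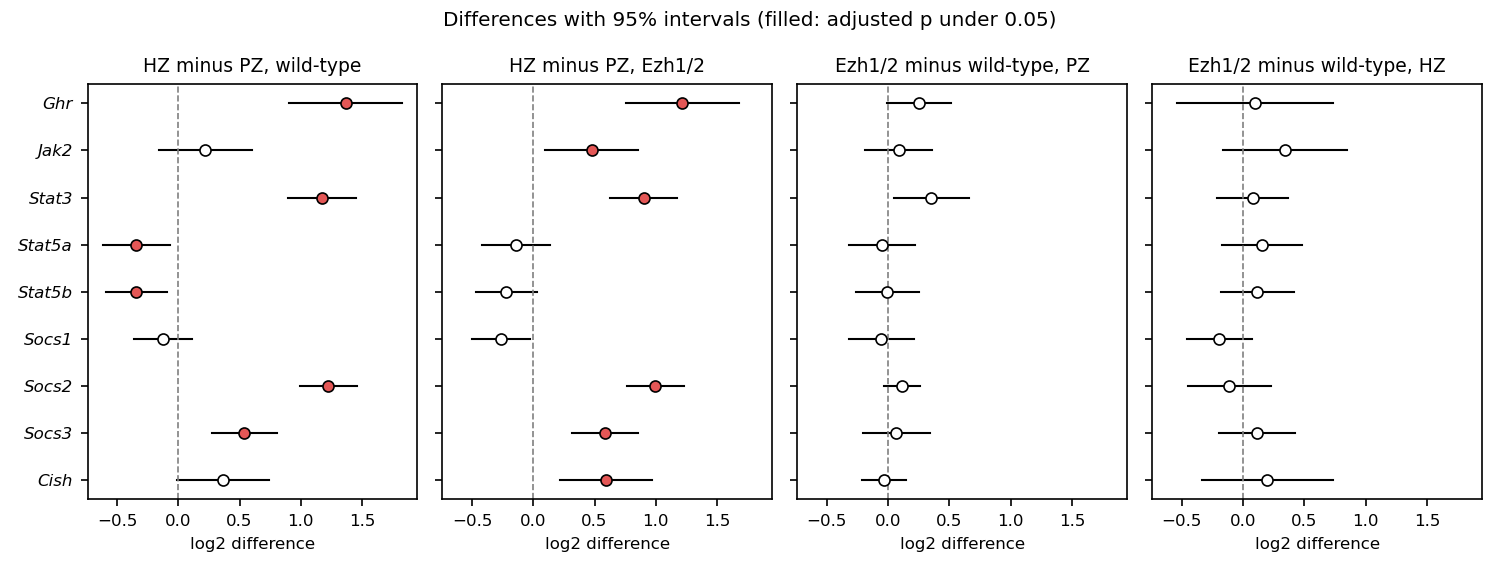
Log2 differences of the 9 genes (brighter probe set) with 95% intervals, from left to right HZ minus PZ in wild-type mice, HZ minus PZ in Ezh1/2 mice, Ezh1/2 minus wild-type in the PZ and Ezh1/2 minus wild-type in the HZ, where filled points passed an adjusted p under 0.05. Zone differences reached 1.37 for Ghr, and no genotype difference passed.

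Between genotypes the 9 genes lay close together. In the PZ their Ezh1/2 minus wild-type differences ran from -0.06 to 0.35 with a median of 0.07, and 0 of 9 were called in limma (1 had an unadjusted p under 0.05), where 0.537% of all genes were. Stat3 had the largest, 0.35 (95% interval 0.04 to 0.66, adjusted p = 0.565, exact two-sided permutation p = 0.0455 over 924 arrangements of 6 against 6 arrays), and its ranges in the 2 genotypes overlapped. Ghr had 0.25 (95% interval -0.01 to 0.51, adjusted p = 0.694) and Socs2 0.11 (95% interval -0.03 to 0.26, adjusted p = 0.784, exact permutation p = 0.039). These 2 exact tests were not adjusted for the 9 genes. The intervals of Stat5a (-0.32 to 0.22), Stat5b (-0.26 to 0.25) and Cish (-0.22 to 0.14) held 0 near their middle.

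In the HZ the genotype differences ran from -0.19 for Socs1 to 0.34 for Jak2 with a median of 0.11. Again 0 of 9 were called in limma (0 had an unadjusted p under 0.05), where 0.0225% of all genes were. The spread between HZ arrays was wider, so the intervals were too. That of Ghr was -0.54 to 0.73, that of Jak2 -0.16 to 0.85 and that of Cish -0.34 to 0.74, which leaves room for changes of up to 1.8-fold in Jak2. Narrower intervals were those of Stat3 (-0.21 to 0.37) and Socs1 (-0.46 to 0.07). Cartilage markers had a lower summed level on these Ezh1/2 HZ arrays, by 0.52 as the mean of 10 genes (exact permutation p = 0.0195), and their part in the genotype values of the HZ was not tested.

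The genotype effect did not differ between the zones by the test of that difference for any of the 9 genes (0 with an unadjusted p under 0.05, lowest adjusted p = 0.837), where 0.0676% of all genes were called. The zone difference was thus not shown to differ between the genotypes for Jak2 or the brighter Cish probe set, which passed in Ezh1/2 mice only with all arrays, or for Stat5a and Stat5b, which passed in wild-type mice only. For Jak2 the difference of the differences was 0.26 (95% interval -0.28 to 0.79), for Stat5a 0.20 (95% interval -0.19 to 0.59) and for Stat3 -0.27 (95% interval -0.66 to 0.12). On the other Cish probe set it was 0.38 (unadjusted p = 0.0478, adjusted p = 0.729).

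Mean levels of markers of some other cells moved with the zone as well. Those of skeletal muscle (-0.25 in wild-type and 0.92 in Ezh1/2 mice) and of perichondrium and fibroblasts (-0.23 and 0.63) did not (exact permutation p of 0.193 or more). The osteoblast mean differed by 0.36 (exact permutation p = 0.413) in wild-type and 0.78 (exact permutation p = 0.0108) in Ezh1/2 mice. For adipocyte markers it was 0.31 (exact permutation p = 0.149) and 0.56 (exact permutation p = 0.00866). The mean log2 level of 6 osteoclast markers was higher in the HZ by 1.76 in wild-type and 2.26 in Ezh1/2 mice (5 and 6 of them called), that of 7 endothelial markers by 1.59 and 2.07 (7 and 7 called) and that of 8 macrophage and myeloid markers by 1.27 and 1.56 (5 and 5 called). On single arrays the osteoclast level lay at 4.08 to 6.58 in the PZ of wild-type mice and 5.83 to 7.33 in their HZ, and at 4.46 to 5.78 and 6.76 to 8.08 in Ezh1/2 mice. That of endothelial markers lay at 3.75 to 4.94 (PZ) and 4.40 to 6.57 (HZ) in wild-type and at 3.8 to 4.2 and 5.35 to 6.69 in Ezh1/2 mice. The myeloid level lay at 4.33 to 6.67 (PZ) and 6.40 to 7.48 (HZ) in wild-type and at 4.79 to 6.43 and 6.13 to 7.64 in Ezh1/2 mice. Proliferation markers were lower in the HZ by 1.55 and 1.40, with 4 of 4 called. The mean level of 10 cartilage markers was lower there too, by 0.60 in wild-type mice (6 called lower and 1, Acan, higher) and 1.12 in Ezh1/2 mice (8 called lower). Sox9, the master factor of cartilage, had -0.97 and -1.67 and Matn3 -1.18 and -2.0, whereas Col2a1 did not pass (-0.07 and -0.29). Ghr, Stat3, Socs2, Socs3 and Jak2 are expressed by many of these cell types, and the part of such cells in the zone differences was not tested. In such samples fewer cells of a type and less RNA per cell cannot be told apart.

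Across arrays the 9 genes did not move as 1 block. Over the 24 arrays Ghr had a Pearson r of 0.84 with Socs2, 0.79 with Stat3, 0.72 with Jak2 and 0.62 with Cish, points that share the zone difference of both genes. Once each array was expressed as its deviation from its group mean, r with Jak2 was still 0.72 while that with Stat3 was 0.00 and that with Socs2 0.22. For such deviations, pooled over the 4 groups, Socs3 had r of -0.53 with Ghr, -0.49 with Stat3 and -0.47 with Jak2. Wild-type HZ array 1, of narrow range, had the lowest Ghr (5.93) and the highest Socs3 (5.46) of its group. Whether Socs3 went against Ghr, or Jak2 went with Ghr, within each single group was not tested. The part of array-wide differences, such as the narrow range of wild-type HZ array 1, in these r values was not tested. The r values are thus descriptions.

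**Figure D3:**
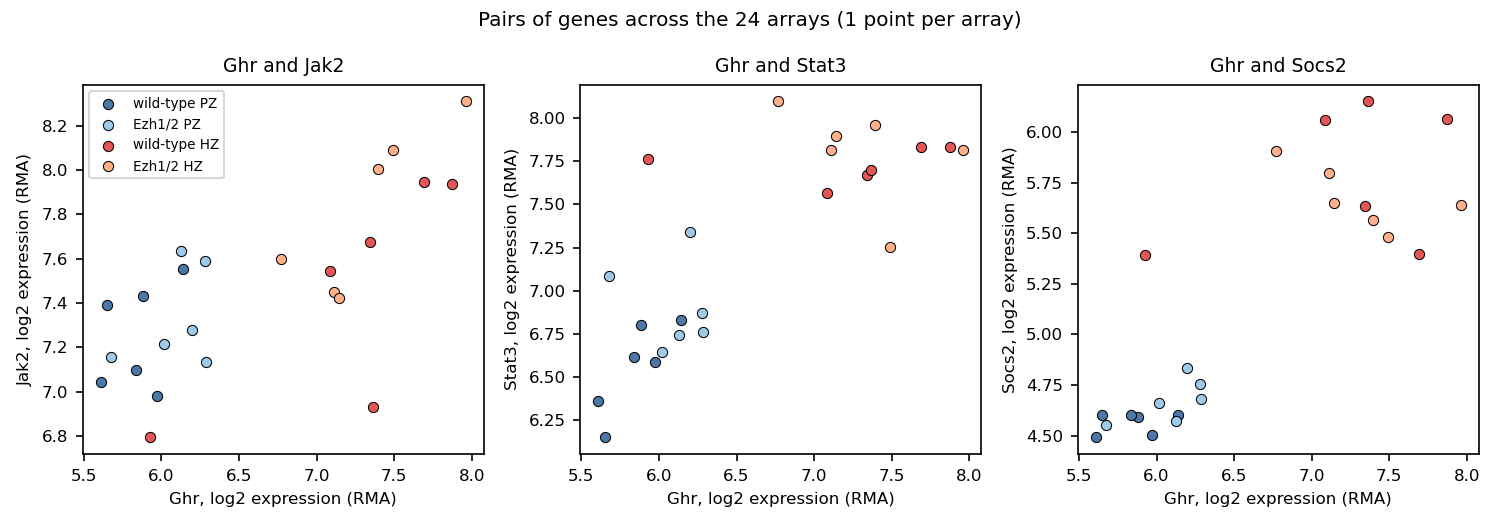
Log2 expression of Ghr on the horizontal axis against Jak2, Stat3 and Socs2 on the vertical axes, 1 point per array and 1 colour per group. For deviations from the group means, pooled over the groups, Ghr and Jak2 had an r of 0.72, while Stat3 and Socs2 separated from the PZ level mainly by zone (0.00 and 0.22).

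The genes most like each of the 9 over the 24 arrays, among 18803 named genes, were listed by Pearson r. For Ghr they were Psme4 (0.98), Tmem131 (0.96) and Fam43a (0.95), and the deviations of Psme4 from its group means still had an r of 0.91 with those of Ghr. Jak2 was nearest to Npc2 (0.87), Fut8 (0.86) and Epdr1 (0.86), Stat3 to Glis3 (0.91), Lama4 (0.91) and Myo1e (0.91), and Socs2 to Slc43a2, Epha2 and Tnfaip2 (0.96 each). For Stat3 and Socs2 the likeness lay mostly in the zones, since for deviations r was 0.41 with Glis3 and 0.48 with Slc43a2. Socs3 was nearest to Dpf3 (0.90), H2bc14 (0.89) and Olfr1045 (0.88), Cish to Hsd17b11 (0.86), Hacd2 (0.83) and Sgpl1 (0.80), and Socs1 to Mgat2 (0.84), Pigp (0.78) and Hyou1 (0.78). Stat5a and Stat5b had no close match, with at most 0.71 (Pmpca, before Armc8 and Fem1a at 0.70 each) and 0.76 (Frmd4b, before Dele1 at 0.76 and Dclk1 at 0.72).

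The rest of the pathway was followed through 85 listed genes in 8 groups, 75 of which had a probe set of a single symbol. Of these 27 rose and 9 fell from the PZ to the HZ of wild-type mice, and 31 and 8 did in Ezh1/2 mice (adjusted p under 0.05), beside the shares of all genes given above. Of the 36 wild-type calls 20 passed in every alternative fit in which the gene was tested, as did 32 of 39 in Ezh1/2 mice, and no direction turned. By the test of whether the genotype effect differed between the zones, 0 of the 75 genes were called (lowest adjusted p = 0.317). Of the 75 genes 7 had an unadjusted p under 0.05 in that test. Where the zone calls below differ between the genotypes, the zone differences themselves were thus not shown to differ.

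Other JAK and STAT genes were higher in the HZ for 4 of 5 in both genotypes. The kinase gene Jak1 had 0.50 in wild-type and 0.68 in Ezh1/2 mice, Tyk2 0.62 and 0.42, and Stat6, the factor of interleukin-4 signalling, 0.54 and 0.80. Stat2 had 0.25 (adjusted p = 0.0445) and 0.65. Stat4 had 0.24 in each and did not pass. Median differences of the 5 genes were 0.50 and 0.65.

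Of 14 receptor genes 6 were higher in the wild-type HZ and 10 in the Ezh1/2 HZ, and 0 were lower. Higher in both genotypes were Il4ra (1.08 in wild-type and 1.33 in Ezh1/2 mice), Il10rb (0.70 and 0.53), the interferon gamma receptor genes Ifngr1 (0.66 and 1.55) and Ifngr2 (0.61 and 0.86), the oncostatin M receptor gene Osmr (0.65 and 1.39) and Csf3r (0.37 and 0.35). Called in Ezh1/2 mice alone were Cntfr (0.56), Ifnar1 (0.53), Ifnar2 (0.50) and Lifr (0.39), whose zone differences were not shown to differ between the genotypes. The signalling chain of the interleukin-6 family, Il6st, had -0.39 (adjusted p = 0.0957) and -0.25 (adjusted p = 0.294), and its partner Il6ra 0.31 and 0.12, so that neither passed beside the rise of Stat3 and Socs3.

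Among the ligands, Gh itself sat at group means of 4.09 to 4.29 and did not differ by zone (0.07 and 0.17, adjusted p = 0.56 and 0.137). The cytokine gene Clcf1 was higher in the HZ by 0.67 and 0.63 and Il6 by 0.46 and 0.41, while Ctf1 was lower by 0.52 in Ezh1/2 mice. Il6 sat at low group means of 3.22 to 3.76, and whether it was detected is not known.

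**Figure D4:**
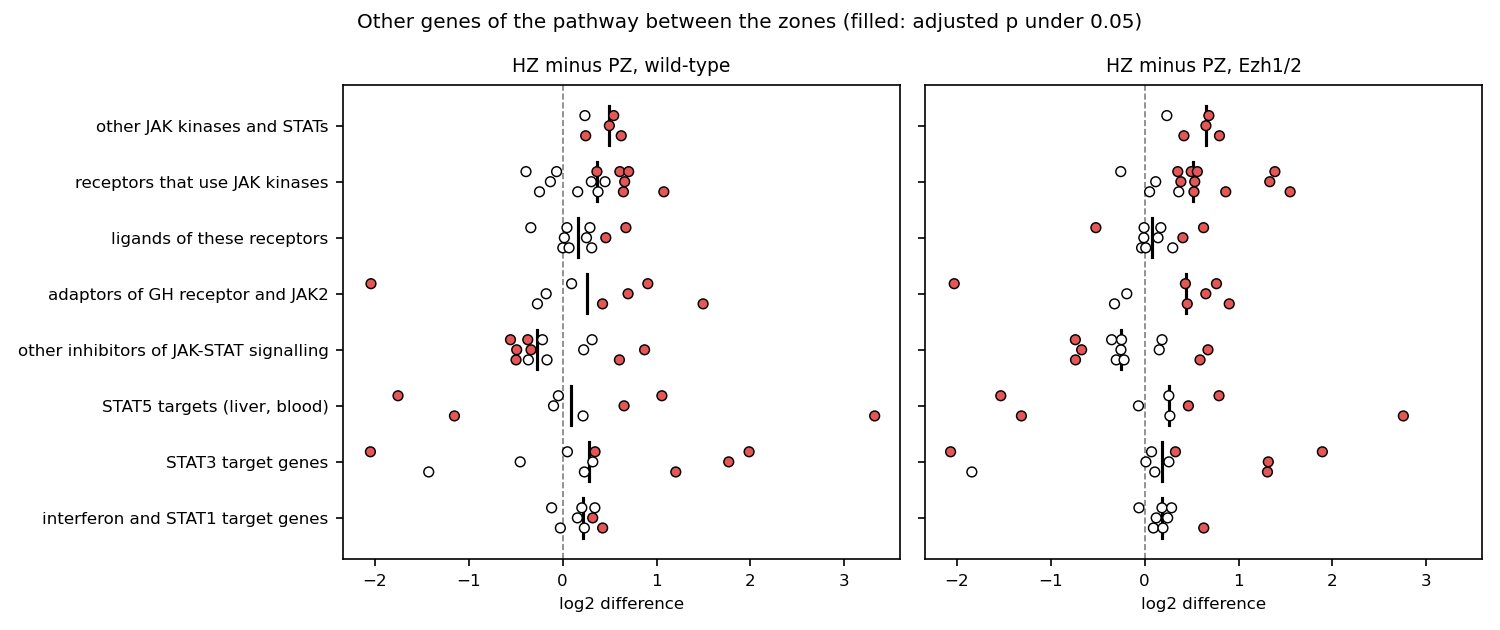
HZ minus PZ log2 differences of the 75 other pathway genes (points, 1 per gene) in wild-type mice on the left and Ezh1/2 mice on the right, by group of function, with the median of each group as a vertical bar and filled points for an adjusted p under 0.05. Receptors and kinases lay mostly above 0, while adaptors and target genes held members on both sides, from Pim1 at 3.32 to Myc at -2.05 in wild-type mice.

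The adaptors that dock to the receptor and JAK2 moved in both directions. Irs1, an insulin receptor substrate, fell by 2.04 in wild-type and 2.03 in Ezh1/2 mice while its relative Irs2 rose by 1.5 and 0.90. Shc1 (0.91 and 0.65), Gab1 (0.70 and 0.76) and Sh2b3 (0.42 and 0.45) rose in both genotypes and Grb2 in Ezh1/2 mice (0.43). In all 4 of 8 rose and 1 fell in wild-type mice, and 5 and 1 in Ezh1/2 mice.

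Of 12 other inhibitors 2 were higher and 5 lower in the wild-type HZ, and 2 and 3 in the Ezh1/2 HZ, with medians of -0.28 and -0.25. The phosphatase genes Ptpn1 (0.87 and 0.59) and Ptpn6 (0.60 and 0.67) rose, as Socs2 and Socs3 did. Other SOCS genes went the opposite way, with Socs5 at -0.50 and -0.67, Socs4 at -0.34 (adjusted p = 0.0422) and -0.25 (adjusted p = 0.142) and Socs7 at -0.37 (adjusted p = 0.0884) and -0.74 (adjusted p = 0.00152). Pias3, which binds STAT3, was lower by 0.49 and 0.74, and Pias2 and Ptpn2 were lower in wild-type mice (-0.56 and -0.37). None of the 5 lower calls in wild-type mice was firm. Those of Socs4, Socs5, Ptpn2 and Pias2 ended without the 3 arrays of narrow range, and that of Pias3 after a further quantile normalization.

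Genes known as STAT5 targets in liver and blood cells did not follow 1 direction. Pim1, a survival kinase, had a median of 4.23 in the wild-type PZ and 7.55 in the wild-type HZ, with the lowest HZ array at 7.13 and the highest PZ array at 4.46. The rise was 3.32 (standard error 0.20, limma adjusted p = 2.33e-11), and in Ezh1/2 mice 2.76 (adjusted p = 6.25e-10). Bcl2l1 rose too (1.06 and 0.47), and Bcl6, which STAT5 is known to repress, in wild-type mice (0.65). The cyclin genes Ccnd1 (-1.15 and -1.53) and Ccnd2 (-1.75 and -1.31) were lower in the HZ. Igf1, the best known target of growth hormone in liver, had 0.22 (adjusted p = 0.573) in wild-type mice and 0.79 (adjusted p = 0.0394) in Ezh1/2 mice.

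Known STAT3 targets were as mixed. Junb (1.99 and 1.89), Fos (1.77 and 1.32) and Cebpb (1.21 and 1.31) rose in the HZ, Icam1 rose in wild-type mice (0.35) and Bcl3 in Ezh1/2 mice (0.33), while Myc fell by 2.05 and 2.07. Of the interferon targets Irf1 was higher in both genotypes (0.32 and 0.63) and Isg15 in wild-type mice (0.43), and the other 6 of 8 did not pass.

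Leaving out 1 array ended 9 of the 36 wild-type zone calls of these genes and 5 of the 39 Ezh1/2 ones. In wild-type mice Stat2 was lost without PZ array 2, 3, 4 or 5 or HZ array 1, 3, 5 or 6 (adjusted p of at most 0.136) and Socs4 without PZ array 2, 3, 4, 5 or 6 or HZ array 1, 2 or 4 (at most 0.112). Osmr was lost without PZ array 2, 3 or 5 or HZ array 2, 5 or 6 (at most 0.0788), Csf3r without PZ array 4 or 5 or HZ array 2 or 6 (at most 0.0704) and Socs5 without PZ array 4 or HZ array 1 or 4 (at most 0.0594). Sh2b3 was lost without HZ array 4 or 6 (at most 0.0661), Icam1 without PZ array 2, 4 or 6 or HZ array 3 (at most 0.0706), Irf1 without PZ array 3 or HZ array 3 or 5 (at most 0.0657) and Isg15 without PZ array 2 or HZ array 1, 2 or 5 (at most 0.0679). In Ezh1/2 mice Igf1 was lost without any of PZ arrays 1 to 5 or HZ array 2, 4 or 6 (at most 0.112), Bcl3 without PZ array 1, 2, 4, 5 or 6 or HZ array 1, 2 or 6 (at most 0.14), Ifnar2 without PZ array 1, 2, 4 or 6 or HZ array 2 or 6 (at most 0.126), Csf3r without PZ array 1, 4 or 5 or HZ array 2 or 4 (at most 0.0918) and Lifr without PZ array 5 or HZ array 2 or 3 (at most 0.0712). Without wild-type numbers 3 and 5 the wild-type calls of Stat2, Stat6, Osmr, Ifngr1, Ifngr2, Socs4, Pias3, Bcl6, Irf1 and Isg15 ended. Without the 3 arrays of narrow range those of Stat2, Socs4, Socs5, Ptpn2, Pias2 and Icam1 ended, as did the Ezh1/2 call of Bcl3.

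Between genotypes 1 of the 75 genes was called in the PZ and 0 in the HZ (13 and 6 had an unadjusted limma p under 0.05). The exception was Ccnd1, with 6.36, 6.63 and 7.06 (lowest, median and highest) in the wild-type PZ and 7.23, 7.37 and 7.72 in the Ezh1/2 PZ. All 6 Ezh1/2 arrays of Ccnd1 lay above all wild-type ones there, as they did for 0.658% of all probe sets. The rise of 0.73 (standard error 0.13) passed in limma with an adjusted p = 0.0239, a call that ended in 7 of 12 fits without 1 array (wild-type arrays 3, 5 and 6 and Ezh1/2 arrays 1, 2, 4 and 6, highest adjusted p = 0.0728) and when the replicate number entered as a block (adjusted p = 0.073). In the fit of all 24 arrays its adjusted p was 0.516. In the HZ Ccnd1 had 0.35 (95% interval -0.29 to 1.0, adjusted p = 0.916). Ccnd2 was not called within either zone, though its means lay further apart than those of Ccnd1 in both. They were 7.70 (wild-type) and 8.51 (Ezh1/2) in the PZ and 5.94 and 7.19 in the HZ. Osmr, not called either, averaged 5.01 in the wild-type HZ and 6.25 in the Ezh1/2 HZ. Clcf1, also not called, lay at 4.46 to 4.83 in the wild-type PZ and at 4.89 to 5.30 in the Ezh1/2 PZ.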

How the data were processed

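The authors hybridized amplified RNA of 24 laser-captured samples to Affymetrix Mouse Gene 2.0 ST arrays and deposited log2 values of 41345 probe sets after background correction, quantile normalization and summarization by RMA in Partek. Detection is not given. Genes were named from the platform annotation. Groups and numbers come from the labels. In limma (3.58.1, R 4.3.3) genotypes were compared within the 12 arrays of a zone, and zones and their interaction over 24 arrays with the animal as random block (correlation 0.0966), two-sided, with Benjamini-Hochberg adjustment over all probe sets. The animal was genotype plus number, since the methods describe both zones of the same animals. No array column was left out. The 9 genes, the gene lists and the markers were chosen with earlier results of these data known. Named are the 9 genes, every listed gene past the adjusted p in any test, and the 3 closest matches by r, predicted genes and small RNAs left out. Stat4, Il6st, Il6ra and Gh were named after their values were seen. Where no listed gene passes, the gene with the lowest p stands for its list. Alternatives covered block, normalization, a floor of 5, variance model, weights and arrays left out.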

Additional observations from a re-analysis of the deposited data

Results flagged for a closer look

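Of 48 groups of 6 arrays (12 probe sets in 4 groups), 2 held an array whose distance to the nearest other array, as a share of the group's range, exceeded Dixon's 95% critical value, and chance gives about 1 in 20 groups. Ezh1/2 HZ array 3 had a Stat3 level of 7.25, below the next array at 7.82. Wild-type HZ array 1, one of the arrays of narrow range, had a level of 3.54 on the other Socs2 probe set, below the next array at 5.99.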

How the results depend on the processing

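Zone differences of Ghr, Stat3, Socs2 and Socs3 kept their direction and their call in every alternative in which they were tested (Socs3, Stat5a, Socs1 and Cish lay under the floor of 5 and were not tested with it), while the calls of Stat5a, Stat5b and Jak2 were within reach of single arrays. No alternative called any of the 9 genes it tested between genotypes, and the arrays' number and the wide HZ spread limit what those tests could call. Same-numbered arrays of the 2 genotypes deviated together with r of -0.10 to 0.22 in the PZ and 0.03 to 0.27 in the HZ (best with their own number in 1 and 4 of 6), and those of the 2 zones with -0.13 to 0.28 in wild-type and 0.07 to 0.19 in Ezh1/2 mice (3 and 5 of 6). Apart from what is given here, the causes of changes were not tested.

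Genotype in the PZ called 152 probe sets higher and 18 lower. With the replicate number as a block these were 74 and 9, in the fit of all 24 arrays 83 and 5, and with a floor of 5 on the mean level (fewer probe sets tested) 80 higher; without 1 array they ran from 87 to 141 and 9 to 22. The 1 pathway gene called was 0 with the block and with all 24 arrays, and 0 to 1 without 1 array. Directions turned for Socs3 on its other probe set (-0.10) and Stat5b after a further quantile normalization (0.0080), and without 1 array for Cish (-0.074 to 0.0077), Socs1 (-0.15 to 0.00070), Socs3 (-0.0053 to 0.15), Stat5a (-0.11 to 0.034) and Stat5b (-0.076 to 0.077).

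Genotype in the HZ called 6 higher and 1 lower. These were 1 and 0 with the replicate block, 132 and 80 with all 24 arrays (2 pathway genes against 0), 0 and 0 without the 3 arrays of narrow range, 2 lower after quantile normalization, 0 lower with a trended prior, and 0 to 6 and 0 to 1 without 1 array. Ghr turned with array weights (-0.00028), without the narrow arrays (-0.15) and within -0.16 to 0.23 without 1 array. The replicate block changed no call of the 9 genes.

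In wild-type mice the 2 genes called lower in the HZ were 1 with no replicate block, with quantile normalization, with the floor and without numbers 3 and 5, 0 with a fixed replicate block and without the narrow arrays, and 0 to 2 without 1 array. The 8059 probe sets higher were 2149 with the floor, 5209 without the narrow arrays and 4949 with the fixed block. Pathway genes were 17 higher with the floor and 5 lower without the narrow arrays. Jak2 turned without numbers 3 and 5 (-0.045). In Ezh1/2 mice the 6722 higher probe sets were 2038 with the floor, and 0 to 1 of the 9 genes were lower without 1 array. The interaction called 7 probe sets higher and 12 lower. These were 4 and 2 with the floor, 3 and 2 without numbers 3 and 5, 7 lower with no replicate block, 4 lower after quantile normalization, and 5 to 13 and 5 to 17 without 1 array. Ghr (0.15) and Socs3 (-0.10) turned without numbers 3 and 5, and Socs3 within -0.038 to 0.12 without 1 array.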
